A study of Mus musculus with 6 samples.

Results

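The genes examined here encode 9 enzymes that convert squalene to cholesterol: *Sqle*, *Lss*, *Cyp51*, *Msmo1*, *Nsdhl*, *Hsd17b7*, *Ebp*, *Sc5d* and *Dhcr7*. They were chosen as named steps of this pathway, with earlier results of these data known. They are 9 of the 12524 genes that could be tested. Liver RNA was sequenced from 3 WT mice and 3 *Sirt7* KO mice, all of them male, 24 months old and fasted for 16 h. The *Sirt7* KO line was backcrossed to C57BL/6J, and both genotypes came from crosses of heterozygous parents. SIRT7, the protein that the KO mice lack, is a nuclear deacylase of the sirtuin family. The labels do not give the part of *Sirt7* that was deleted, and each library came from 1 ng of whole-liver RNA.

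Cholesterol is built from acetyl-CoA through mevalonate and the linear hydrocarbon squalene. Squalene is then oxidized and folded into lanosterol, the first sterol, which loses methyl groups and has its double bonds moved and reduced until cholesterol is formed in the membrane of the endoplasmic reticulum. In liver these genes are controlled together by SREBP2, a transcription factor that is released from the endoplasmic reticulum when its membrane is poor in sterol. SREBP2 acts at promoters together with the CCAAT-binding factor NF-Y and with Sp1. Fasting is known to lower sterol synthesis in liver.

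The reads assigned to transcripts numbered 9994860 to 13424776 per mouse. *Sirt7* was at 45.5 to 55.2 CPM (read counts scaled to a common library size) in WT mice and at 28.6 to 41.7 CPM in *Sirt7* KO mice, so RNA of the gene was still read in the KO livers (log2 fold change -0.41, standard error [SE] 0.18, adjusted p = 0.42 from edgeR). The position of the *Sirt7* reads within the gene was not examined, so they do not show whether the deleted part was transcribed. The 8 hepatocyte markers examined, among them *Alb* and *Apoa1*, were all tested. Their summed level was 46920 to 51920 CPM in WT mice and 48430 to 58290 CPM in *Sirt7* KO mice. Summed markers of Kupffer cells (53.1 to 117 CPM and 45.7 to 136 CPM, 7 genes), sinusoidal endothelium (67.4 to 88.2 and 72.1 to 103 CPM, 6 genes), stellate cells (165 to 213 and 135 to 215 CPM, 6 genes), bile duct (47.3 to 72.7 and 53.4 to 71.0 CPM, 6 genes) and lymphocytes (6.51 to 9.83 and 4.03 to 7.43 CPM, 6 genes) overlapped between WT and *Sirt7* KO mice. The summed red cell markers overlapped too (374 to 547 and 446 to 915 CPM, 5 genes), although all 5 had a log2 fold change above 0. One of them, *Alas2*, which starts heme synthesis in red cells, was at 49.6, 94.5 and 90.2 CPM in WT mice and at 129, 198 and 235 CPM in *Sirt7* KO mice, and it was called by DESeq2 but not by edgeR (log2 fold change 1.26, adjusted p = 0.17). The globin genes were lower in *Sirt7* KO 2, the liver with the highest sterol enzymes, than in any other liver, and the part of red cell RNA in the results was not tested. Among 6 markers of pancreas and fat *Prss2* and *Pnlip* were at 0 reads in all livers and *Cela1* made up nearly all of the sum (9.39 to 13.97 and 24.4 to 47.7 CPM, with no overlap between genotypes). *Spp1* (40.2 to 63.2 and 45.6 to 58.0 CPM) made up most of the bile duct sum, and *Dcn* (135 to 170 and 101 to 165 CPM) most of the stellate cell sum. *Krt19*, another bile duct marker, was very low and did not overlap (0.42 to 1.09 and 1.10 to 1.59 CPM, adjusted p = 0.53 from edgeR). In RNA of whole tissue, fewer cells of a type and less RNA per cell cannot be told apart.

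The promoters are shown first because they are what the genes share outside the RNA counts. RefSeq windows of GRCm38.p6, from 250 bases before to 50 bases after an annotated start, were found for 8 of the 9 genes, all but *Sqle*. In all 8 the letters CCAAT, the core of the NF-Y site, were present on one strand or the other, against 37.4% of the 32851 promoter windows in the table. The letters GGGCGG of the GC box bound by Sp1 were also present in all 8, against 35.7%, and 12.8% of all windows held both. The windows of *Msmo1*, *Nsdhl*, *Hsd17b7*, *Ebp* and *Dhcr7* held CCAAT at least 2 times, as did 11.7% of all windows. The start in the window lay downstream of the start of the most abundant transcript by 214 bases in *Msmo1*, 49 in *Cyp51* and 36 in *Hsd17b7*. All CCAAT matches of *Msmo1* (-160 to -55 from the start in the window) and *Cyp51* (-29) therefore lie downstream of where that transcript starts. In *Dhcr7* the start in the window lay 588 bases downstream. Its whole window, with its CCAAT matches at -85 and -49, thus lies downstream of where its most abundant transcript starts. GC content was 45.3% in *Ebp* and 59.3% to 71.0% in the other 7 windows, with a median of 52.7% over all windows, and its part in the GGGCGG matches was not tested. The E-box CACGTG was present in *Hsd17b7* and *Sc5d* (7.15% of all windows). The sterol regulatory core TCACNCCAC was in 0 of the 8 windows (1.24% of all). This says only that these letters are not in these windows. *Dhcr7* has 3 windows in the table. The one nearest to its most abundant transcript, whose start lies 588 bases upstream of the start in the window, was used, and the other two hold no CCAAT.

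The windows of 3 genes are printed up to the first annotated start, 5′ to 3′ on the strand of the gene, with CCAAT or its reverse complement in capitals. *Nsdhl* is among the enzymes with the largest difference between genotypes, *Hsd17b7* has the smallest, and *Ebp* has the highest level. The sequences lie at chrX:72918271-72918520 (plus strand), chr1:169969242-169969455 (minus strand) and chrX:8193513-8193762 (minus strand) of GRCm38.p6, and each holds 2 matches.
Nsdhl: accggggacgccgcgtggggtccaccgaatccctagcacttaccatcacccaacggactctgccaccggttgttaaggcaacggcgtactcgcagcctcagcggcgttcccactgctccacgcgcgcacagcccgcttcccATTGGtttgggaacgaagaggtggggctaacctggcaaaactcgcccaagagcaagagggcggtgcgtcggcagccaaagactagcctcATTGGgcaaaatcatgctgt
Hsd17b7: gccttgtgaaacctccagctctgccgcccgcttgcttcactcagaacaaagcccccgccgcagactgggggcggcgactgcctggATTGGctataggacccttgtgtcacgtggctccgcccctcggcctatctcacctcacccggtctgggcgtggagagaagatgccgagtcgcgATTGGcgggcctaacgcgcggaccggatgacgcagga
Ebp: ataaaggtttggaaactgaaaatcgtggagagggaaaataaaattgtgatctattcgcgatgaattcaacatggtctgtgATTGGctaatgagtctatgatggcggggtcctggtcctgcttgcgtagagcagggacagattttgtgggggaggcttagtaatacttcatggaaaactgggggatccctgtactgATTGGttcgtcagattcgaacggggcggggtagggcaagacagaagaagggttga
The printed window of *Hsd17b7*, the enzyme with the smallest difference between genotypes, holds these letters, as do those of *Nsdhl* and *Ebp*. Whether the letters have a part in the differences was not tested.

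**Figure D1:**
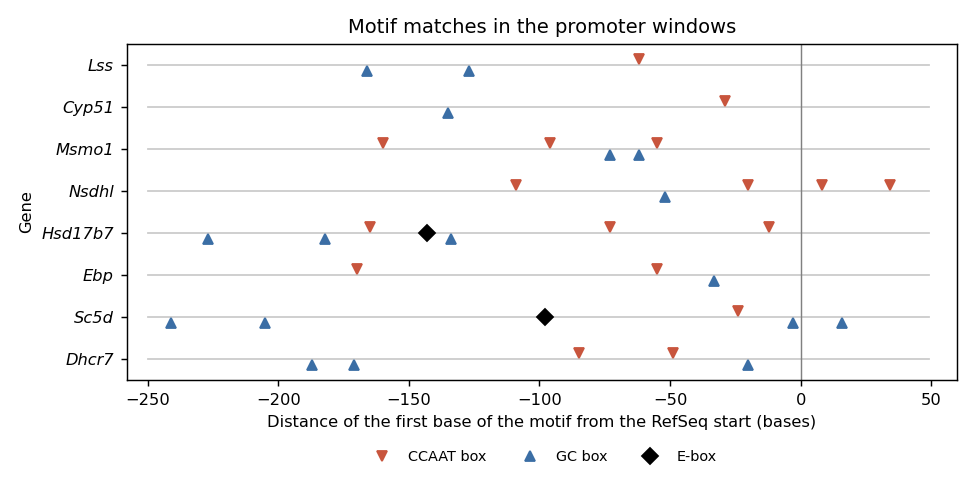
Motif matches in the promoter windows of 8 genes. Each row is a gene, the grey line is the window of 250 bases before to 50 after the RefSeq start, the horizontal axis gives the distance in bases of the first base of a match from the start, and red, blue and black symbols mark the CCAAT box, the GC box and the E-box on either strand. Every row holds at least 1 CCAAT box and 1 GC box, and 2 rows hold an E-box.

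In *Sirt7* KO livers, 8 of the 9 enzymes had a fitted level more than 1.5-fold that of WT livers, and 6 of them more than 2-fold, whereas *Hsd17b7* was at 1.16-fold. Over all tested genes, 8.61% were above 1.5-fold and 2.91% above 2-fold. The largest differences were in *Sqle* (5.62-fold), *Dhcr7* (4.62-fold) and *Nsdhl* (4.07-fold). A gene was called differentially expressed when edgeR gave a fold change over 1.5 and an adjusted p-value below 0.05. None of the 9 was, while 0.00798% of the tested genes (1 gene) were called higher and 0 lower. Their adjusted p-values were 0.17 to 0.81. With no adjustment, 8 members were higher and 0 lower at p below 0.05, against 6.54% of tested genes higher and 4.78% lower. The same 8 were also past the fold threshold, as were 4.42% of tested genes. All 9 had a log2 fold change above 0, as did 49.3% of tested genes. The median log2 fold change of the 9 was 1.66, beside -0.01 over all tested genes. In 7 of them all *Sirt7* KO livers were above all WT livers, which was so in 8.74% of tested genes, and the reverse, found in 0 members, in 8.09%. DESeq2 called *Lss* and *Sc5d* without length offsets (1.57% of genes called higher and 0.595% lower) and *Cyp51* and *Nsdhl* with them (1.33% and 0.532%), so no enzyme was called by both.

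**Figure D2:**
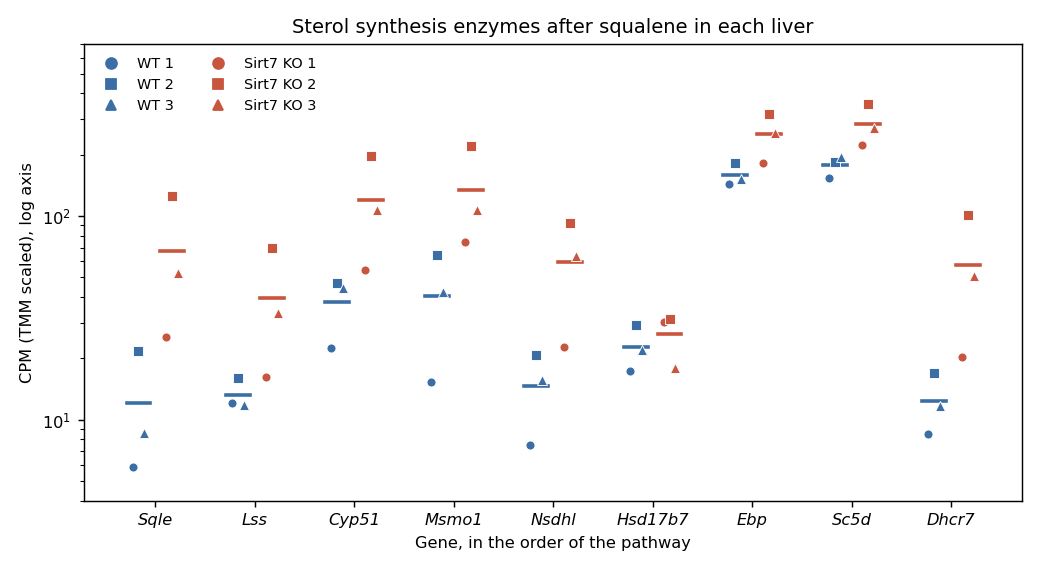
CPM of each enzyme in each liver, on a log axis, with genes in the order of the pathway. Blue symbols are WT mice, red symbols *Sirt7* KO mice, symbol shapes the mouse number and bars the group means. *Sirt7* KO 2 is the highest liver in all 9 genes, WT 1 the lowest in 8, and the groups overlap in *Hsd17b7* and, by a narrow margin, in *Ebp*.

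*Sqle* encodes squalene epoxidase, which adds oxygen to squalene and is a step at which the flux of the pathway is set. The gene (ENSMUSG00000022351.14) lies on chromosome 15, from 59315077 to 59331192 (all gene positions are from GENCODE M21 on GRCm38). Its level was 5.84, 21.8 and 8.58 CPM in the WT mice and 25.4, 125 and 52.6 CPM in the *Sirt7* KO mice. The lowest KO liver was just above the highest WT liver, and both genotypes varied widely, by a coefficient of variation of 70.6% in WT mice and 76.0% in KO mice. edgeR fitted a log2 fold change of 2.49 (SE 0.62) at an adjusted p of 0.19, with a 95% interval of 2.12 to 14.9 in fold. The highest liver had 21.4 times the CPM of the lowest, the widest span of the 9 genes.

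*Lss*, lanosterol synthase, folds the epoxide into lanosterol. It lies on chromosome 10, from 76531588 to 76557138 (ENSMUSG00000033105.12). It was at 12.1, 16.0 and 11.8 CPM in WT mice and at 16.2, 69.5 and 33.6 CPM in *Sirt7* KO mice. The WT livers lay close together (coefficient of variation 17.6%) and *Sirt7* KO 1 was hardly above them. This was a log2 fold change of 1.58 with an SE of 0.44, and edgeR gave an adjusted p of 0.22.

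*Cyp51* encodes the cytochrome P450 that starts the removal of methyl groups from lanosterol, and it lies on chromosome 5, from 4081145 to 4104746 (ENSMUSG00000001467.5). Its level was 22.6, 47.1 and 44.3 CPM in WT mice and 54.1, 198 and 108 CPM in *Sirt7* KO mice. The groups did not overlap, and WT 1 lay well below the other WT livers. In edgeR the log2 fold change reached 1.66 (SE 0.44), with an adjusted p of 0.21. Its end overlaps *Akap9* on the opposite strand, which had 305 to 504 reads per liver. *Cyp51* shared 3.88% of its 31-base words with other genes, the largest share of the 9.

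*Msmo1*, the methylsterol monooxygenase, oxidizes the remaining methyl groups. It lies on chromosome 8, from 64718139 to 64733792 (ENSMUSG00000031604.10). Its level was 15.2, 64.2 and 42.3 CPM in WT mice and 74.5, 221 and 107 CPM in *Sirt7* KO mice. Here *Sirt7* KO 1 was nearer to WT 2 than to the other KO livers. edgeR fitted a log2 fold change of 1.72 (SE 0.52) at an adjusted p of 0.26.

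*Nsdhl* acts next, as the dehydrogenase that removes the oxidized carbon. It lies on chromosome X, from 72918557 to 72958514 (ENSMUSG00000031349.4), and was at 7.54, 20.8 and 15.6 CPM in WT mice and at 22.9, 92.5 and 63.4 CPM in *Sirt7* KO mice. *Sirt7* KO 2 and 3 stood far above all others, and *Sirt7* KO 1 lay slightly above WT 2. This was a log2 fold change of 2.02 with an SE of 0.50, and edgeR gave an adjusted p of 0.19.

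*Hsd17b7* encodes the reductase that follows NSDHL in the same reaction cycle and can also form estradiol from estrone. It lies on chromosome 1, from 169949535 to 169969241 (ENSMUSG00000026675.12). Its level was 17.4, 29.3 and 22.0 CPM in WT mice and 30.2, 31.2 and 18.0 CPM in *Sirt7* KO mice. The groups overlapped, and *Sirt7* KO 3, which was the second highest liver in the 8 other genes, was the second lowest here. In edgeR the log2 fold change was 0.21 (SE 0.26) at an adjusted p of 0.81, and its 95% interval in fold was 0.77 to 1.73. The sign depended on the correction for transcript length, since the log2 fold change was -0.30 in DESeq2 with length offsets and -0.31 in edgeR with them.

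*Ebp*, the sterol isomerase, and *Sc5d*, the sterol desaturase that acts after it, move and add double bonds of the ring. *Ebp* lies on chromosome X, from 8185329 to 8193512 (ENSMUSG00000031168.14), and was at 144, 183 and 153 CPM in WT mice and at 182, 318 and 255.1 CPM in *Sirt7* KO mice. *Sirt7* KO 1 and WT 2 had nearly the same level. edgeR fitted a log2 fold change of 0.65 (SE 0.21) at an adjusted p of 0.29.

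*Sc5d*, on chromosome 9 from 42251595 to 42264256 (ENSMUSG00000032018.14), was at 155, 184 and 194 CPM in WT mice and at 224, 353 and 270 CPM in *Sirt7* KO mice. All KO livers were above all WT livers. This was a log2 fold change of 0.67 with an SE of 0.19, and edgeR gave an adjusted p of 0.24. The highest liver had 2.20 times the CPM of the lowest in *Ebp* and 2.29 times in *Sc5d*, against 5.91 to 21.4 times in the 6 genes with larger differences between genotypes.

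*Dhcr7* encodes the reductase that makes cholesterol in the last step, and it lies on chromosome 7, from 143823145 to 143848410 (ENSMUSG00000058454.15). Its level was 8.47, 17.1 and 11.7 CPM in WT mice and 20.4, 101 and 50.8 CPM in *Sirt7* KO mice. As in *Sqle*, the lowest KO liver was just above the highest WT liver. Its log2 fold change was 2.21 (SE 0.51), and its adjusted p-value of 0.17 from edgeR was the lowest of the 9 genes. By unadjusted p-value *Dhcr7* ranked 143 among the tested genes and *Hsd17b7* ranked 6697.

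For each of the 7 genes whose groups did not overlap, a two-sided exact permutation test gave p = 0.1, the smallest that 3 mice against 3 allow. The same exact permutation test gave p = 0.2 for *Ebp* and p = 0.5 for *Hsd17b7*.

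**Figure D3:**
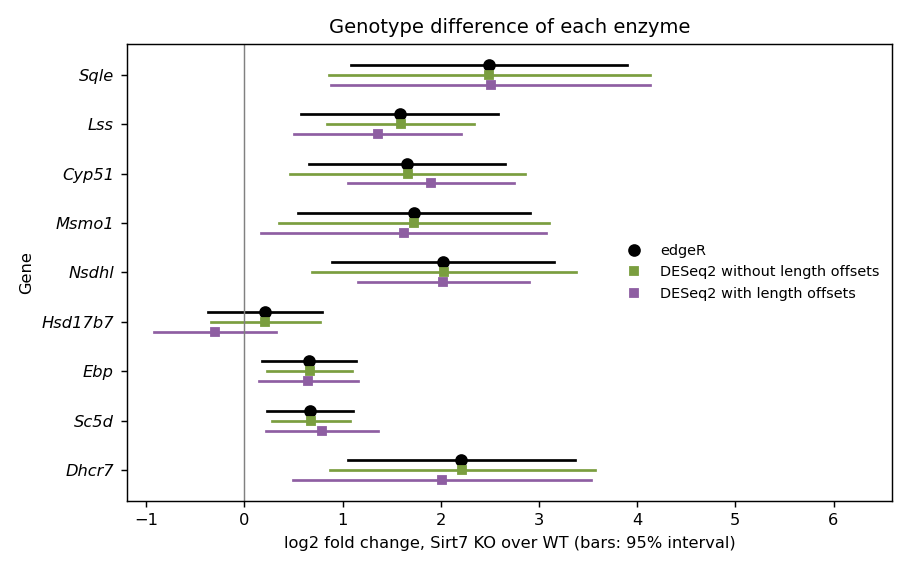
Log2 fold change of each enzyme, *Sirt7* KO over WT, with 95% intervals, from edgeR (black) and from DESeq2 without (green) and with (purple) length offsets. The intervals of *Hsd17b7* include 0, and those of the 8 other genes lie above 0 in each fit before adjustment for the number of genes.

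The livers kept nearly the same order from gene to gene. *Sirt7* KO 2 was the highest liver in all 9 genes and *Sirt7* KO 3 the second highest in 8. *Sirt7* KO 1 was above all WT livers in 8 genes, all but *Ebp*. WT 1 was the lowest liver in 8 genes, the exception being *Lss*, where WT 3 was lowest. Against the WT mean, *Sirt7* KO 2 was at 1.36-fold (*Hsd17b7*) to 10.4-fold (*Sqle*), *Sirt7* KO 3 at 0.79-fold to 4.36-fold, and *Sirt7* KO 1 at 1.14-fold (*Ebp*) to 2.10-fold (*Sqle*). The mean over the 9 genes of log2(CPM + 0.5), centred on the 6 livers, was -1.203, -0.20 and -0.64 for WT 1 to 3. For *Sirt7* KO 1 to 3 it was -0.05, 1.45 and 0.65. The gap between WT 2 and *Sirt7* KO 1 was therefore smaller than the spread within either genotype.

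The size of the difference depended on single livers. Without *Sirt7* KO 1, 6 members were called (*Sqle*, *Lss*, *Cyp51*, *Nsdhl*, *Ebp* and *Dhcr7*), as were 252 of all genes. Without *Sirt7* KO 2 the median log2 fold change of the members fell to 1.09, and edgeR called 0 members and 0 of all genes. In that fit 7 members had an unadjusted p-value under 0.05. Without both WT 1 and *Sirt7* KO 2 the median was 0.82, 5 members had an unadjusted p-value under 0.05 and *Hsd17b7* was at -0.09. The share of all genes at that threshold is not given for these fits, so these counts have no background beside them. *Sirt7* KO 2 was also the library with the fewest reads, and with all libraries thinned to its depth the median was 1.67. Mitochondrial transcripts took 2.37% to 2.68% of the reads of WT livers, and for *Sirt7* KO 1, 2 and 3 they took 3.17%, 1.93% and 1.65%. The part of mitochondrial reads in these differences was not tested.

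Levels of different genes can be compared only per length, by TPM (reads divided by transcript length and scaled to the same total in each liver). In WT mice *Ebp* had the highest level, at 140 ± 16.5 TPM (SD, n = 3), followed by *Sc5d* at 92.4 ± 10.8 TPM and *Msmo1* at 26.3 ± 15.6 TPM. The WT livers of these 3 genes did not overlap with each other. The other 6 genes were lower and overlapped with their neighbours in the order, from *Cyp51* (14.6 ± 3.89 TPM, which overlapped *Msmo1*), *Hsd17b7* (8.96 ± 2.99), *Dhcr7* (7.73 ± 3.46) and *Nsdhl* (6.31 ± 2.60) to *Lss* (4.53 ± 2.45) and *Sqle* (3.89 ± 2.61). The enzymes with the largest fold differences were thus among those with low WT levels. The isomerase and the desaturase, with small fold differences, had the highest levels. *Hsd17b7* was also among the low ones and had the smallest fold difference (1.16-fold). WT values enter both the WT level and the fold difference, so these are not independent. In *Sirt7* KO mice *Ebp* (213 ± 72.6 TPM) and *Sc5d* (156 ± 63.2 TPM) stayed at the top of the order by mean, and *Hsd17b7* (7.05 ± 1.48 TPM) went from the fifth place to the last. The summed level of the 9 genes was 273, 352 and 291 TPM in WT mice and 315, 880 and 609 TPM in *Sirt7* KO mice.

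The share of each enzyme in that sum does not depend on the scaling of the libraries, but it does depend on the correction for transcript length. *Hsd17b7* made up 2.68%, 3.53% and 2.47% of the sum in WT mice, and its share was 1.93%, 1.00% and 1.04% in *Sirt7* KO mice. Every KO liver was below every WT liver, although the TPM of *Hsd17b7* itself overlapped. The shares of *Sqle* (0.74% to 1.95% and 2.48% to 4.66%), *Cyp51* (3.76% to 5.48% and 5.53% to 10.5%) and *Nsdhl* (1.30% to 2.47% and 2.94% to 4.55%) were higher in every KO liver than in every WT liver. *Ebp* held 46.3% ± 6.58 (SD, n = 3) of the sum in WT mice and 37.2% ± 5.57 in *Sirt7* KO mice, with overlap, and the shares of *Sc5d*, *Lss*, *Msmo1* and *Dhcr7* overlapped as well. In the 4 genes without overlap the two-sided exact permutation test gave p = 0.1, the smallest possible, and p = 0.23 after adjustment over the 9 genes. With CPM in place of TPM, only *Sqle* of these 4 still had no overlap, and its difference in share went from 2.12 to 3.57 percentage points. The CPM shares of *Hsd17b7* were 4.48%, 5.02% and 4.37% in WT mice, and they were 4.65%, 2.07% and 1.88% in *Sirt7* KO mice, so that *Sirt7* KO 1 lay among the WT livers (two-sided exact permutation test, p = 0.3). *Cyp51* and *Nsdhl* overlapped as well (exact permutation test, p = 0.2 each), whereas *Msmo1* and *Dhcr7* were then higher and *Ebp* lower without overlap. The difference of *Sc5d* went from -4.1 to -8 percentage points. The signs of all 9 differences were the same by both measures.

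**Figure D4:**
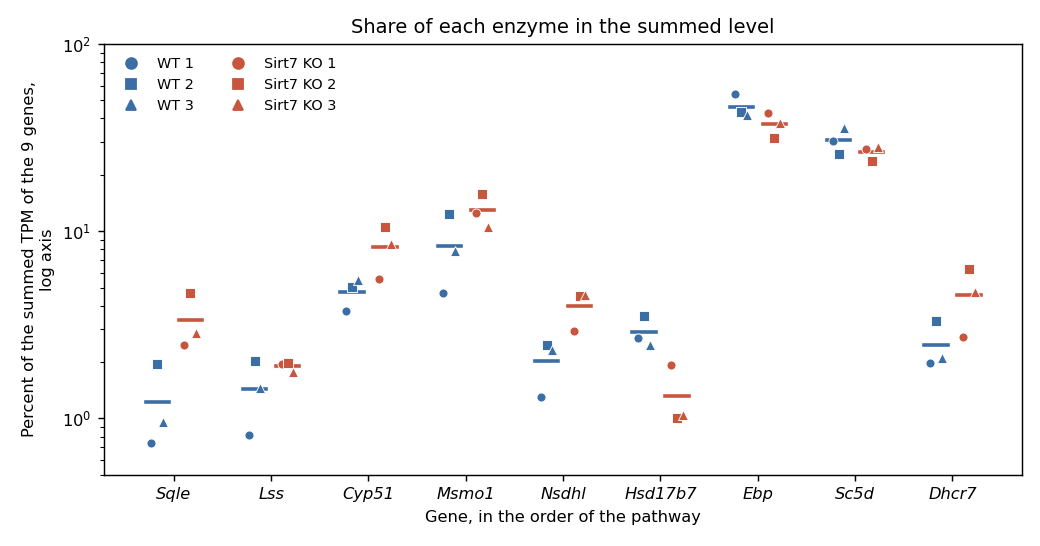
Share of each enzyme in the summed TPM of the 9 genes, in percent on a log axis, for each WT (blue) and *Sirt7* KO (red) liver, with bars at the group means. By TPM the 3 *Sirt7* KO livers lie below the WT livers in *Hsd17b7* and above them in *Sqle*, *Cyp51* and *Nsdhl*.

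Salmon assigned the reads of each gene to its transcripts, and it estimates this division from reads that fit several of them. In every gene the transcript with most reads was protein coding. It held 99.5% to 100% of the reads of a liver in *Nsdhl*, 90.9% to 99.5% in *Sqle* and 86.6% to 94.5% in *Cyp51*. In *Msmo1* the leading transcript held only 49.9% to 62.5%, and a shorter transcript without a coding frame (ENSMUST00000145216.7) held 28.3% to 34.8% in WT mice, against 35.9%, 47.1% and 46.0% in *Sirt7* KO mice. All non-coding transcripts of *Msmo1* together took 37.3% to 40.3% of its reads in WT mice and 40.8% to 50.1% in *Sirt7* KO mice. In *Hsd17b7* the non-coding share went the other way, from 10.5% to 15.9% in WT mice and from 1.9% to 8.7% in *Sirt7* KO mice. In *Sqle* a transcript with a retained intron took 1.2% to 9.1% of the reads in WT mice and 0.5% to 0.9% in *Sirt7* KO mice, which was at most 10.3 reads in a liver. The non-coding share was tested in all 9 genes by two-sided permutation. The exact permutation test gave p = 0.1, the smallest possible, in *Msmo1*, *Hsd17b7* and *Sqle* (p = 0.3 after adjustment over the 9) and p = 0.3 to 1 in the 6 other genes. With protein-coding transcripts alone counted, the median log2 fold change of the 9 genes was 1.59. The 9 genes shared 0% (*Nsdhl* and *Ebp*) to 3.88% of their 31-base words with other genes.

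Other proteins of the steps after squalene were at 1.03-fold to 1.47-fold, above *Hsd17b7* in part and below the 8 other members, and whether they differ from the 9 was not tested. *Lbr* and *Tm7sf2*, which both encode reductases that act after CYP51, were at 1.03-fold (0.67 to 1.59) and 1.45-fold (0.82 to 2.57). *Erg28*, a scaffold protein for the enzymes that remove methyl groups, was at 52.5, 61.4 and 61.0 CPM in WT mice and at 66.9, 110 and 80.2 CPM in *Sirt7* KO mice (1.47-fold, 95% interval 1.08 to 2, adjusted p = 0.33 from edgeR). Of the 4 genes of this list 1 had an unadjusted p-value under 0.05, and their median log2 fold change was 0.33.

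The 9 genes of the pathway up to squalene, from *Acat2* to *Fdft1*, had a median log2 fold change of 1.78, beside 1.66 after squalene. All 9 had an unadjusted p-value under 0.05 and were higher, 0 were called by edgeR, and in 6 the groups did not overlap. DESeq2 called 6 of them without length offsets and 6 with them, where it called 2 and 2 of the 9 after squalene. *Fdft1*, squalene synthase, which makes the substrate of SQLE, was at 5, 39.7 and 8.73 CPM in WT mice and at 37.4, 254.7 and 110 CPM in *Sirt7* KO mice. As in *Sqle*, WT 2 was the highest WT liver, and here it was above *Sirt7* KO 1.

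Of 10 genes of SREBP control and lipoprotein uptake, 5 had an unadjusted p-value under 0.05, all higher, and 0 were called by edgeR. *Srebf2*, which encodes SREBP2, was at 33.2, 53.5 and 39.4 CPM in WT mice and at 50.9, 72.3 and 57.2 CPM in *Sirt7* KO mice (log2 fold change 0.52, SE 0.21, adjusted p = 0.39 from edgeR). *Insig1*, which holds SREBP in the endoplasmic reticulum, was at 37.7, 47.5 and 62.3 CPM in WT mice and at 76.0, 147 and 105 CPM in *Sirt7* KO mice. All its KO livers were above all WT livers (log2 fold change 1.15, SE 0.27, adjusted p = 0.17 from edgeR). Of 6 genes of LXR and sterol export, 0 had an unadjusted p-value under 0.05, and their log2 fold changes were -0.15 (*Abcg8*) to 0.38 (*Abcg1*).

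SQLE and CYP51 take electrons from cytochrome P450 reductase (*Por*), and MSMO1 and SC5D take them from cytochrome b5, which is reduced by *Cyb5r3*. *Por* was at 608, 697 and 765 CPM in WT mice and at 348, 559 and 540 CPM in *Sirt7* KO mice, a lower level in every KO liver (log2 fold change -0.52, SE 0.21, adjusted p = 0.39 from edgeR). *Cyb5r3* was at 284, 403 and 370 CPM and at 411, 728 and 663 CPM, a higher level in every KO liver (log2 fold change 0.77, SE 0.24, adjusted p = 0.26 from edgeR). Of these 5 electron donors and partners, 2 had an unadjusted p-value under 0.05 and were higher, 1 was lower, and 0 were called by edgeR.

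**Figure D5:**
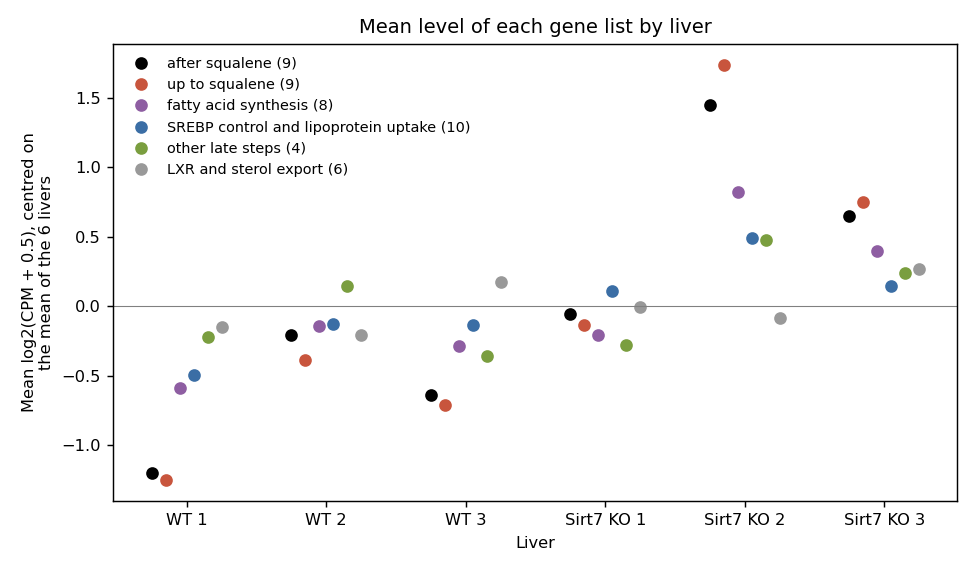
Mean log2(CPM + 0.5) of 6 gene lists in each liver, centred on the mean of the 6 livers. Each colour is a list, with its number of genes. The lists before and after squalene put the livers in the same order, and so does the list of SREBP control and lipoprotein uptake. Those before and after squalene span the widest range of the 6, from WT 1 (-1.25 and -1.203) to *Sirt7* KO 2 (1.74 and 1.45). LXR and sterol export stay between -0.21 and 0.27.

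Genes were also ranked by how closely they followed the mean profile of the 9 enzymes over the 6 livers, by the root mean square difference in centred log2(CPM + 0.5). This difference had a median of 0.91 over 12515 genes and was 0.15 to 0.23 in the closest 8, among them *Dct*, *Aldh1b1*, *Hmgcs1*, *Cnp*, *Tlcd2*, *Gm13522* and *Adrb3*. *Hmgcs1* belongs to the list up to squalene, and *Dct*, *Aldh1b1*, *Cnp*, *Tlcd2*, *Gm13522* and *Adrb3* to none of the lists used here. *Aldh1b1*, a mitochondrial aldehyde dehydrogenase, was at 27.8, 45.4 and 45.7 CPM in WT mice and at 61.7, 144 and 98.5 CPM in *Sirt7* KO mice. *Dct*, known for pigment synthesis, was low, at 2.4 to 3.9 CPM and 5.8 to 14 CPM. Among the 9 enzymes themselves the difference from their mean was smallest in *Cyp51* (0.18) and largest in *Hsd17b7* (0.76) and *Sqle* (0.61).

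Fatty acid synthesis, the other lipid pathway under SREBP control, had 5 of 8 genes higher and 1 lower at an unadjusted p-value under 0.05, with a median log2 fold change of 0.91 and 0 called by edgeR. The largest log2 fold change was 1.55 in *Fasn*, fatty acid synthase, and the lowest was -0.55 in *Me1*, malic enzyme. Of 7 genes of cholesterol esterification and bile acid synthesis, 1 was higher and 1 lower at that threshold. *Cyp7b1*, an oxysterol hydroxylase of bile acid synthesis, had the largest log2 fold change of these (1.18, SE 0.20, adjusted p = 0.10 from edgeR), and *Soat2*, which esterifies cholesterol, the lowest (-0.47, SE 0.15, adjusted p = 0.29 from edgeR).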

How the data were processed

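RNA-seq libraries of 6 livers were read from a single end after cDNA synthesis with SMART-seq HT. Per the submitters' processing notes, Trim Galore 0.6.5 served for trimming, and the authors quantified reads by Salmon 1.2.1 against the mouse transcriptome of GRCm38. They deposited estimated counts per transcript, which are not normalized and need not be whole, and TPM, which Salmon scales to effective length and to a total per mouse. The release of the transcript annotation is not given in the sources used here.

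Estimated counts were summed over the transcripts of each GENCODE M21 gene and rounded. Of 140992 transcripts, 1201 matched no gene and were not used (0.303% to 0.492% of the reads). Genotypes were compared with edgeR 4.0.16 (R 4.3.3; quasi-likelihood test, TMM, filterByExpr with a minimum count of 10, Benjamini-Hochberg over 12524 genes). CPM are TMM-scaled and 95% intervals are unadjusted. Permutation tests of the level of a gene used log2(CPM + 0.5), and those of shares used the shares in percent. DESeq2 1.42.0 was run with and without offsets for average transcript length. DESeq2 is also the tool of the study, which loaded its counts through tximport. Motifs, isoforms and shared words were computed with Python 3.11.15. Both tools were tested on simulated counts.

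Members and lists were chosen with earlier results of these data known. Named genes were *Sirt7*, the 9 enzymes, genes of the lists before squalene, of other late steps and of SREBP control, the highest and lowest log2 fold change of each other list, and the 8 closest profiles. *Alb*, *Apoa1*, *Spp1*, *Prss2*, *Pnlip* and *Akap9* fall outside this rule and were chosen after their values were seen. Some genes that the rule takes are not reported here. Alternatives were other normalizations, filters, thresholds, length offsets, DESeq2, protein-coding transcripts, thinning, shares by CPM, a replicate block and leaving out each liver, and, chosen after seeing the data, leaving out 2 livers. Labels number the mice of each genotype, and the sources do not say that they were paired. Libraries of a genotype were further apart than counting noise (chi-square per gene of at least 16.9 between 2 of them), so none was treated as a duplicate. The labels call them biological replicates, and their spread also holds that of library preparation. No molecular identifiers are named, so depth covers counting error only.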

Additional observations from a re-analysis of the deposited data

How the results depend on the processing

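The 9 enzymes kept a positive log2 fold change under every alternative except *Hsd17b7*, which was at -0.31 in edgeR with length offsets, -0.30 in DESeq2 with length offsets and -0.09 without both WT 1 and *Sirt7* KO 2 (a choice made after seeing the data). No cause of these changes was tested. The number of enzymes called moved from 0 to 8 when p was left unadjusted (below 0.05, fold over 1.5), to 8 without a filter on low counts (a fit in which the SE of *Sqle* went from 0.62 to 0.21 and its adjusted p from 0.19 to 4.71e-30, and whose small p-values are doubtful, with a cause that was not tested), to 2 in DESeq2 without and 2 with length offsets, and it was 0 to 6 with each liver left out in turn. The number of all genes called moved from 1 to 925 at the unadjusted threshold, 633 without a filter, 258 and 242 in DESeq2 without and with length offsets, 2 with total counts, 2 in edgeR with length offsets and 0 without both WT 1 and *Sirt7* KO 2, and it was 0 to 252 with each liver left out. In that fit without both livers the median log2 fold change was 0.82 after squalene and 0.85 up to squalene. With the replicate number as a block, 41 genes and 5 of the enzymes (*Sqle*, *Cyp51*, *Msmo1*, *Nsdhl* and *Dhcr7*) were called. The same-numbered mice are different animals, and the correlations of their deviations from the group means were 0.07, 0.08 and -0.04, so the numbers were not taken to pair the samples, and not every liver correlated best with its own number. RLE, upper quartile, a mean of at least 50 counts, protein-coding transcripts, thinning and an adjusted p-value with no fold threshold left 0 enzymes and 1 gene called. Total counts moved the median of all genes to -0.11 and that of the enzymes to 1.56. *Sqle* had the fewest reads of the 9 genes in a liver, 69 in WT 1, and with all libraries thinned to equal depth the median of the enzymes was 1.67.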
